A study of Mus musculus with 21 samples.

Results

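The genes examined here were 35 markers of cell proliferation, 23 of them genes of mitosis and the G2 phase and 12 of them genes of DNA replication and the G1 to S transition. They were chosen by symbol from textbook knowledge, but with earlier results of these data known. They were matched to mouse Ensembl gene identifiers, and all 35 were found among the 55401 genes of the count table. They were measured by poly(A) RNA sequencing of forebrain from 21 mice in 6 groups. E2H, E3H and E4H were the parental groups (n = 3 mice each), homozygous for human APOE2, APOE3 or APOE4 targeted into the mouse Apoe locus and 9 to 10 months old. PS/E2H, PS/E3H and PS/E4H (n = 4 mice each) had the same homozygous APOE alleles plus 1 copy of the PS19 transgene, which encodes human P301S mutant tau under the mouse prion promoter, and were killed when both hindlimbs were paralysed. The PS19 line was on a mixed B6/C3H background and the APOE lines on C57BL6, and no group kept mouse Apoe. Because every transgenic mouse was paralysed and was taken at its own age, the tau transgene, paralysis, age at death and strain background cannot be told apart in any comparison of PS19 mice with parental mice. The study reports that PS/E3H mice reached paralysis later than PS/E2H and PS/E4H mice. Among PS19 mice, APOE genotype and age at death therefore cannot be told apart either, and this also enters comparisons of APOE lines that include PS19 mice.

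In a dividing cell, the MCM2 to MCM7 helicase opens DNA at replication origins, PCNA clamps the polymerases to the template, and the enzymes Rrm2 and Tyms supply nucleotides, under the control of cyclin E and the transcription factor E2F1. Mitosis then uses another set of proteins, among them cyclin B with the kinase Cdk1, the Aurora and Polo kinases, the spindle checkpoint kinases, kinesin motors and topoisomerase II alpha, and most of their genes are transcribed mainly in G2 and M phase. Neurons of the adult forebrain do not divide, and the cycling cells of this tissue are few, chiefly neural progenitors of the ventricular and hippocampal niches, oligodendrocyte precursors, and microglia when they are stimulated. Several replication proteins, PCNA among them, also act in DNA repair, and their genes are expressed in cells that do not divide. In bulk RNA, fewer cells of a type and less RNA per cell cannot be told apart.

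The libraries held between 59265459 and 75932183 gene counts (median 63751715). E2H replicate 2 had the highest mitochondrial share, 10.9% of counts against at most 9.25% in any other mouse. It also had the fewest genes with a count, 24438 against at least 24942. The cortical marker Tbr1 was present in every mouse, with 3859 to 9112 counts. Of 6 hindbrain genes, Hoxb2, Hoxb3 and Hoxa2 had a median of 0 counts and at most 35, while En1 had 0 to 130, En2 48 to 264 and Cbln3 13 to 387. Their sum was 1.16 to 5.77 CPM (counts scaled to library size) in the parental mice and 2.13 to 12.2 CPM in the PS19 mice, with the highest values in PS/E3H replicate 2 (12.2) and PS/E2H replicate 4 (10.5). All E2H mice (2.56 to 5.77 CPM) lay above all E3H mice (1.37 to 2.39), and E4H mice (1.16 to 3.38) overlapped with both. Pituitary markers summed to 1.22 to 3.16 CPM in E2H, below all E3H mice (6.03 to 6.46), and to 1.82 to 10.6 in E4H. Whether the tissue taken differed between these groups was not tested. Prnp, whose promoter drives the tau transgene, had 53665 to 71962 counts in the parental mice and 87272 to 124737 in the PS19 mice. In 17 mice Xist, the RNA of the inactive X, had 12188 to 36358 counts and the Y-linked Ddx3y at most 21, whereas E4H replicate 3, PS/E2H replicate 2 and PS/E4H replicates 1 and 4 had 164 to 189 counts of Xist and 2517 to 4246 of Ddx3y. The study's methods describe these numbers the other way round (4 female mice in the same groups). Fits without these 4 mice were made for PS/E2H against E2H, PS/E4H against E4H and the pooled comparisons. Results that change there are given both ways. Comparisons among the PS19 groups and the interactions were not refitted without them as a set. PS/E3H replicate 4 and PS/E4H replicate 1 also stood apart, with 730 and 403 counts of the neutrophil granule gene Ngp against at most 55 in any other mouse. Fits without them were made for PS/E3H against E3H, PS/E4H against E4H and the pooled comparisons only, and results that change there are likewise given both ways.

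Many promoters of the genes carry motifs through which cell cycle transcription is known to work. The windows read for E2f1, Nusap1 and Tyms held none of the motifs below. That of E2f1 (chr2:154569427-154569676, minus strand) lay inside the gene as annotated (chr2:154559407-154569892), so the bases before the annotated start were not read. The promoters of Mki67, Top2a, Kif23 and Bub1b are shown because the values below turn on these genes. The CCAAT box binds the factor NF-Y, the cell cycle genes homology region (CHR, TTTGAA or TTTAAA) binds the DREAM and MuvB complexes, and E2F factors bind sites such as TTTGGCGC, TTTGCCGC, TTTCGCGC or TTTCCCGC. Each sequence below is the 250 bases before the RefSeq transcription start in GRCm38.p6, written 5′ to 3′ on the strand of the gene, with matches to these motifs on either strand in capitals. Mki67 (chr7:135716380-135716629, minus strand) and Top2a (chr11:99024190-99024439, minus strand) each held 2 matches to TTTGAA, with 3 and 6 CCAAT boxes, respectively. Kif23 (chr9:61946800-61947049, minus strand) and Bub1b (chr2:118597961-118598210, plus strand) each held 1 CCAAT box, and neither CHR form was found in these windows. Mcm6 (chr1:128359706-128359955, minus strand), shown as the replication gene with the most E2F matches, held 3, of which 2 overlapped on opposite strands, and 2 CCAAT boxes. Pcna, by contrast, held no E2F match.
Mki67: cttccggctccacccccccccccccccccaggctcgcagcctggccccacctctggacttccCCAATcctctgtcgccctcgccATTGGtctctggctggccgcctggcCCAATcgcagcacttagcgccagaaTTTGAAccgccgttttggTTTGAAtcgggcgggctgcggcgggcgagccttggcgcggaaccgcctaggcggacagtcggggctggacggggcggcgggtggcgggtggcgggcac
Top2a: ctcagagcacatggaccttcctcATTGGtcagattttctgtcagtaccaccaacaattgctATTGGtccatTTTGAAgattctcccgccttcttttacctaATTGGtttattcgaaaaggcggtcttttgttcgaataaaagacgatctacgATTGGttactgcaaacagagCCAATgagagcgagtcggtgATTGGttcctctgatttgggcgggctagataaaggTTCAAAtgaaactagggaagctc
Kif23: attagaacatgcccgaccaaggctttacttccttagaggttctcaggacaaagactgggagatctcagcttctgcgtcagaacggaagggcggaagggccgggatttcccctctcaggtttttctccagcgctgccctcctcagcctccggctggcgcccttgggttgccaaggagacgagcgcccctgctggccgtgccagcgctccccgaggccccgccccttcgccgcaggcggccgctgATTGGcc
Bub1b: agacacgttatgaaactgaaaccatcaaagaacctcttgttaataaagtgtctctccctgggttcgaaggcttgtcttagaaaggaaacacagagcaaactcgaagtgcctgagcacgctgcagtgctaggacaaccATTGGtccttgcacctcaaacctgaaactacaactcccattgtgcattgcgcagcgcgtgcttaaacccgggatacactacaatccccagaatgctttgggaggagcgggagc
Mcm6: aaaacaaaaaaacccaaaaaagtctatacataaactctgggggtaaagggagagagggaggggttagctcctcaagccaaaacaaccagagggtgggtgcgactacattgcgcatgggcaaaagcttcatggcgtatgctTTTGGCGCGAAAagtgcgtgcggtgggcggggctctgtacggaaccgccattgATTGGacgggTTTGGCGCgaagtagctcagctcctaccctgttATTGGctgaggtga

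Among the 29 genes of the set with a promoter in the RefSeq table, 17 of 19 mitotic and 7 of 10 replication genes held a CCAAT box, against 37.5% of the 27025 genes with a promoter of the same length. Either form of the CHR was found in 12 of 19 mitotic and 3 of 10 replication genes, against 28.1% of all genes. An E2F match of the 4 spellings above was found in 1 of 19 mitotic and 3 of 10 replication genes, against 2.16% of all genes. A match is a description of the letters and not a measured binding site. The windows of Cdca8, E2f1 and Mcm7 lay inside these genes as annotated by GENCODE. For these genes the tallies do not describe the bases before the annotated start.

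Most replication genes were more abundant than the mitotic genes, although the sets overlapped. In the deposited FPKM (sequenced fragments scaled to transcript length and library size), which allow levels to be compared between genes, Pcna, the replication clamp, was the highest at 18.5 ± 2.10 FPKM (SD, n = 21 mice, range 14.8 to 23.1). The cyclin E gene Ccne1 followed at 5.77 FPKM, E2f1 at 3.40, and the helicase subunits Mcm4 and Mcm7 at 3.28 and 3.14. In all, 9 of the 12 replication genes and 0 of the 23 mitotic genes had a mean of at least 1 FPKM, against 35.7% of the 37538 genes with a count. The other 3 replication genes, Mcm2 at 0.714, Rrm2 at 0.519 and Tyms at 0.259 FPKM, lay within the range of the mitotic genes. The median over genes was 2.15 FPKM for replication and 0.208 FPKM for mitosis, beside 0.174 FPKM over all those genes.

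The most abundant mitotic genes were the spindle kinase gene Aurka at 0.855 FPKM, Cdc20, an activator of the anaphase-promoting complex, at 0.690, and the spindle assembly factor gene Tpx2 at 0.687. The widely used markers were lower, with 0.208 FPKM (range 0.063 to 0.333) for Top2a, which encodes topoisomerase II alpha, and 0.139 FPKM (0.074 to 0.244) for Mki67, which encodes the Ki-67 antigen. The lowest were the checkpoint kinase gene Bub1 at 0.080 FPKM and the kinetochore gene Cenpf at 0.041 FPKM. The counts behind these values differed widely. Pcna had a median of 3225 counts per mouse, whereas Top2a had 150 (42 to 222), Mki67 had 98 (58 to 187), Ube2c had 30 (10 to 72) and Aurkb had 22 (6 to 39). Within groups the coefficient of variation had a median of 23.1% over the mitotic genes (12.5% to 36.8%) and 10.1% over the replication genes (7.69% to 25.9%). It did not follow the counts alone, since Bub1b with a median of 123 counts had 34.6% and Cdc20 with 91 counts had 12.5%.

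**Figure D1:**
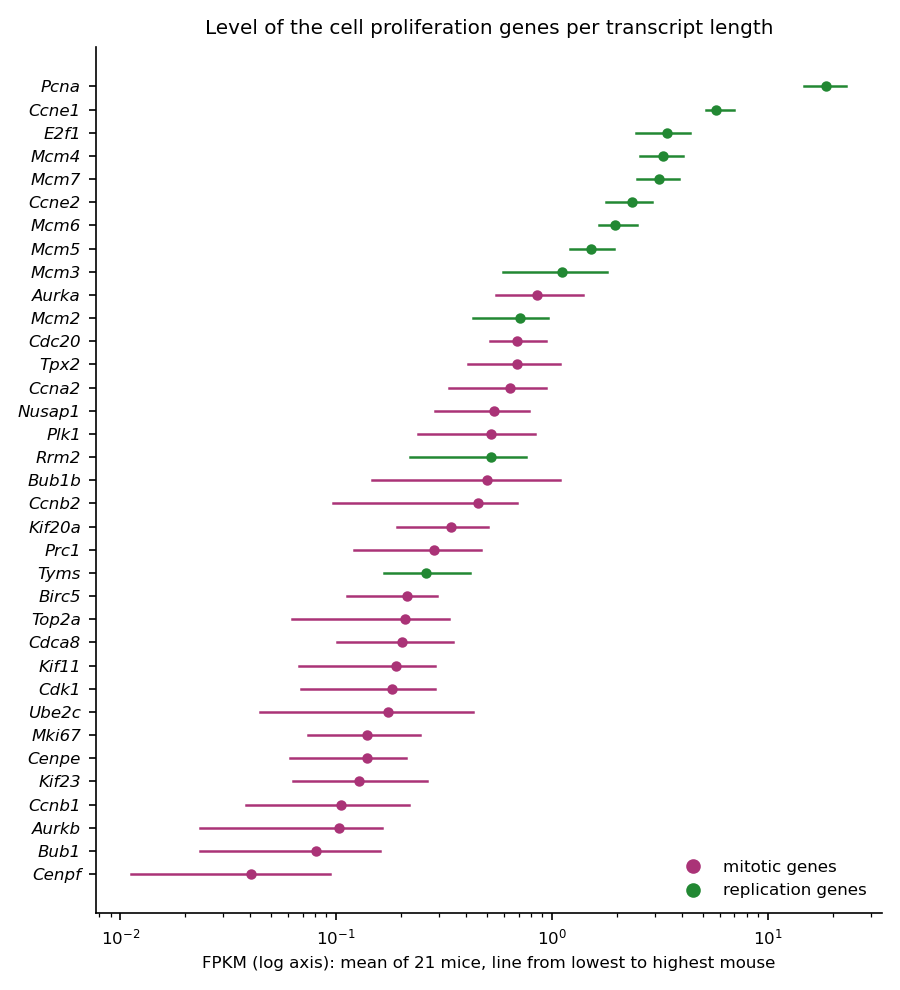
Deposited FPKM of the 35 proliferation genes on a log axis, ordered by mean, with the point at the mean of 21 mice and the line from the lowest to the highest mouse; colours mark mitotic and replication genes. Pcna stands highest at 18.5 FPKM, and no mitotic gene has a mean above that of Aurka, 0.855 FPKM.

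In forebrain of paralysed PS19 mice the median change of the mitotic genes and of the replication genes was small, and the single genes that changed went both ways. Over all 3 APOE lines, compared by edgeR with the APOE line as a covariate, Cdca8 and Bub1b fell and Mcm7 rose, each by less than 2-fold. No member passed the limits that the study used, an adjusted p under 0.05 together with a 2-fold change. With that rule 2.60% of the 22863 genes tested in the pooled comparison passed. Shares of all genes that passed a test are by edgeR here and below, and none is given for DESeq2 or limma. With no limit on the fold, 11.4% of genes rose and 9.63% fell, against 1 and 2 of the 35 members. An unadjusted p under 0.05 was reached by 32.2% of genes and by 6 members, and DESeq2 also passed 0 members by the 2-fold rule in the pooled comparison. limma passed 0 as well, but the constant added to FPKM shrinks the fold changes of genes as low as the mitotic ones. Its 2-fold count is therefore a weak check on those genes. Of the mitotic genes, 8 of 23 had a higher fitted level in PS19 mice, with a median log2 fold change of −0.096, and of the replication genes 6 of 12, with a median of 0.0049. The fitted changes had a median standard error of 0.178 on the log2 scale over the mitotic genes (0.124 to 0.297) and 0.083 over the replication genes.

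Mki67 (ENSMUSG00000031004, chr7:135689784-135716361 in GRCm38) was measured at 0.863, 1.01 and 0.814 CPM in E2H mice, 1.496, 1.56 and 1.003 in E3H mice, and 1.81, 1.66 and 1.61 in E4H mice. In the PS19 mice it was at 1.21, 1.26, 1.104 and 1.22 CPM in PS/E2H, 1.79, 1.80, 2.28 and 2.68 in PS/E3H, and 1.97, 2.01, 1.40 and 1.44 in PS/E4H. All PS/E2H mice lay above all E2H mice, and all PS/E3H mice above all E3H mice, while PS/E4H and E4H overlapped. Pooled over the lines, the log2 fold change was 0.36 (SE 0.133) with an adjusted p of 0.0550 by edgeR's quasi-likelihood test, and passed without E4H replicate 1, PS/E4H replicate 3 or PS/E4H replicate 4, where it was 0.40 each time with adjusted p of 0.0480, 0.0330 and 0.0344. Within the lines it was 0.42, 0.64 and 0.015 for APOE2, APOE3 and APOE4, with adjusted p of 0.646, 0.178 and 0.977. PS/E3H replicate 4, one of the mice with the most Ngp, had the highest Mki67 of all, and the pooled value without both such mice was 0.30 with an adjusted p of 0.140.

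Top2a (ENSMUSG00000020914, chr11:98992943-99024189) was at 0.624, 1.25 and 1.39 CPM in E2H, 2.16, 2.73 and 2.28 in E3H, and 3.27, 2.21 and 2.84 in E4H. It was at 1.41, 1.28, 2.74 and 0.701 CPM in PS/E2H, 1.71, 2.21, 2.39 and 3.19 in PS/E3H, and 2.99, 2.47, 1.37 and 1.82 in PS/E4H. PS19 and parental mice overlapped in each line, and the pooled log2 fold change of 0.031 (SE 0.211, adjusted p = 0.948 by edgeR) changed sign with the unit and with the mice included.

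Cdca8, Bub1b and Mcm7 are described in full because they passed, a choice made after their values were seen. Cdca8 (ENSMUSG00000028873, chr4:124918465-124939311), which encodes borealin of the chromosomal passenger complex, was at 1.51, 1.48 and 1.24 CPM in E2H, 1.32, 1.90 and 1.64 in E3H, and 1.19, 1.30 and 1.02 in E4H. In PS/E2H it was at 0.706, 0.958, 1.17 and 1.32 CPM, in PS/E3H at 0.848, 0.786, 0.908 and 1.05, and in PS/E4H at 0.793, 1.11, 0.581 and 1.32. All PS/E3H mice lay below all E3H mice, and the groups overlapped in the other lines. Cdca8 fell by 0.53 on the log2 scale over the lines (SE 0.157, adjusted p = 0.0176 by edgeR) and passed without any single mouse, with values from −0.60 to −0.47. It overlaps an antisense gene, 9930104L06Rik, and how the counting treated strand was not given in the sources used here.

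Bub1b (ENSMUSG00000040084, chr2:118598211-118641591), which encodes the spindle checkpoint kinase BubR1, was at 4.04, 1.74 and 1.15 CPM in E2H, 5.03, 3.16 and 4.38 in E3H, and 2.60, 2.26 and 3.79 in E4H. In PS/E2H it was at 0.793, 1.46, 1.96 and 2.37 CPM, in PS/E3H at 0.707, 2.82, 1.82 and 1.26, and in PS/E4H at 1.76, 1.80, 2.39 and 1.93. The E3H mice were all above the PS/E3H mice, and in the other lines the groups overlapped. Bub1b fell by 0.80 on the log2 scale over the lines (SE 0.246, adjusted p = 0.0231), and within lines the log2 fold changes were −0.49, −1.36 and −0.54 with adjusted p of 0.798, 0.0654 and 0.134. The pooled call was lost without E2H replicate 1 (−0.67, adjusted p = 0.0722), E3H replicate 1 (−0.72, adjusted p = 0.0506), the 4 mice with Y-linked counts (−0.76, adjusted p = 0.0933) or the 2 mice with the most Ngp (−0.73, adjusted p = 0.0642).

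Within single APOE lines, edgeR passed 0 members by the 2-fold rule, where 0.485% of 20617 genes passed in PS/E2H against E2H, 1.32% of 21251 in PS/E3H against E3H and 2.98% of 20844 in PS/E4H against E4H. An unadjusted p under 0.05 was reached by 1, 5 and 4 members in these comparisons, against 10.7%, 21.4% and 30.1% of genes. DESeq2 passed 0 members in APOE2 and APOE4 and 1, Bub1b, in APOE3, which edgeR also passed without PS/E3H replicate 1 (−1.11, adjusted p = 0.0388) or PS/E3H replicate 2 (−1.75, adjusted p = 0.0274). limma passed 0, on a scale that shrinks the fold changes of genes with low FPKM. The mitotic genes had a median log2 fold change of 0.10, −0.14 and −0.19 in the APOE2, APOE3 and APOE4 lines, with 16, 6 and 7 of 23 higher in the PS19 mice. Groups did not overlap for Cdk1 and Mki67, both higher in PS/E2H, which were 2 of 35 members against 11.7% of genes. In PS/E3H, Cenpf and Mki67 were above, and Cdca8, Ccnb2, Kif23 and Bub1b below, all E3H mice, which were 6 of 35 against 19.2% of genes. In PS/E4H, Cdc20 and Pcna were above and Kif20a and E2f1 below all E4H mice, which were 4 of 35 against 28.8% of genes.

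**Figure D2:**
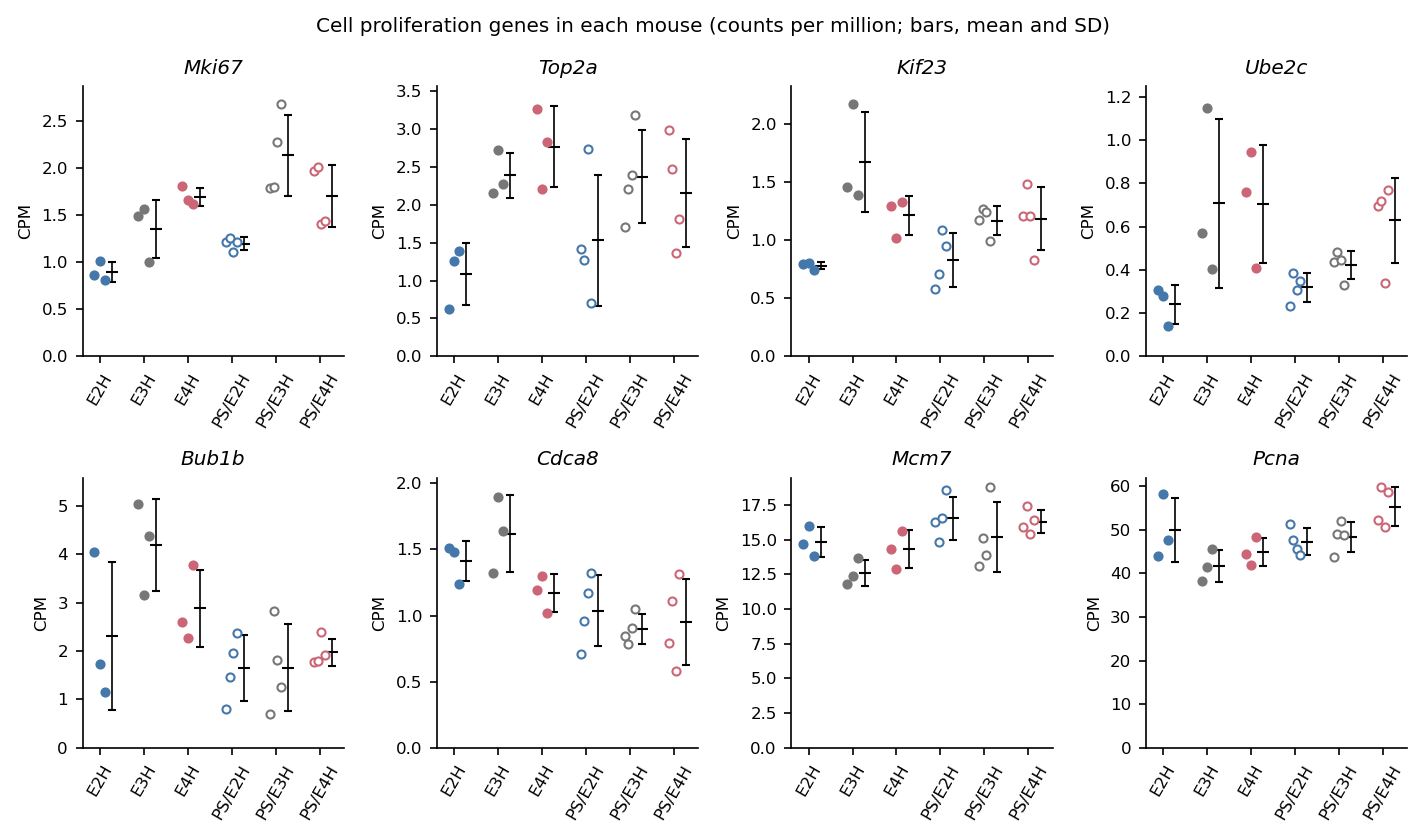
CPM of 8 proliferation genes in each of 21 mice by group, with filled points for parental mice, open points for PS19 mice and bars at the group mean and SD; each panel starts at 0. Mki67 and Top2a are lowest in the E2H group (means 0.896 and 1.09 CPM), and Pcna lies between 38.3 and 59.7 CPM in all mice.

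Of the 12 replication genes, 2 changed in a comparison of PS19 with parental mice, each in a different comparison, and both rose. Over all lines it was Mcm7, 1 of 12, where 11.4% of all genes rose with no limit on the fold. In the APOE4 line it was Pcna, 1 of 12, where 8.62% of all genes rose. These single calls do not set the replication genes apart from all genes. Pcna (ENSMUSG00000027342, chr2:132249162-132253314) was at 44.0, 58.1 and 47.6 CPM in E2H, 38.3, 41.5 and 45.5 in E3H, and 44.5, 41.8 and 48.4 in E4H. It was at 51.3, 47.8, 45.7 and 44.3 CPM in PS/E2H, 43.8, 49.1, 52.0 and 48.8 in PS/E3H, and 52.2, 59.7, 50.7 and 58.6 in PS/E4H. All PS/E4H mice lay above all E4H mice, and the groups overlapped in the APOE2 and APOE3 lines. With no limit on the fold, Pcna rose in PS/E4H by 0.30 on the log2 scale (SE 0.0795, adjusted p = 0.0288 by edgeR), where 15.6% of genes passed. The call was lost without E4H replicate 1 (0.30, adjusted p = 0.107), E4H replicate 2 (0.26, adjusted p = 0.135), PS/E4H replicate 2 (0.27, adjusted p = 0.0664), PS/E4H replicate 4 (0.29, adjusted p = 0.0609) or the mice with Y-linked counts (0.36, adjusted p = 0.0761). Over all lines the log2 fold change was 0.15 (SE 0.0639, adjusted p = 0.112), and it passed without E2H replicate 2 (0.20, adjusted p = 0.00798).

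Mcm7 (ENSMUSG00000029730, chr5:138164583-138172422), a subunit of the replicative helicase, was at 14.7, 15.98 and 13.8 CPM in E2H, 11.8, 12.4 and 13.7 in E3H, and 14.4, 12.9 and 15.6 in E4H. It was at 16.3, 14.8, 16.6 and 18.6 CPM in PS/E2H, 13.1, 15.2, 13.9 and 18.8 in PS/E3H, and 15.95, 17.4, 15.4 and 16.5 in PS/E4H. The groups overlapped in the APOE2 and APOE3 lines, and in APOE4 the PS19 mice except replicate 3 lay above all parental mice. Mcm7 rose by 0.21 on the log2 scale over the lines (SE 0.0647, adjusted p = 0.0234 by edgeR) but not without E3H replicate 1 (0.19, adjusted p = 0.0577) or E4H replicate 2 (0.19, adjusted p = 0.0596). Of the other MCM genes, Mcm3 had the largest value, a log2 fold change of 0.35 with an adjusted p of 0.0800. Of the 50-base windows of Mcm7 and Pcna, 23.3% and 19.1% also occur in another gene, most often in Gm5487 and Pcna-ps2, and Mcm7 overlaps Ap4m1 and Cops6 on the other strand.

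**Figure D3:**
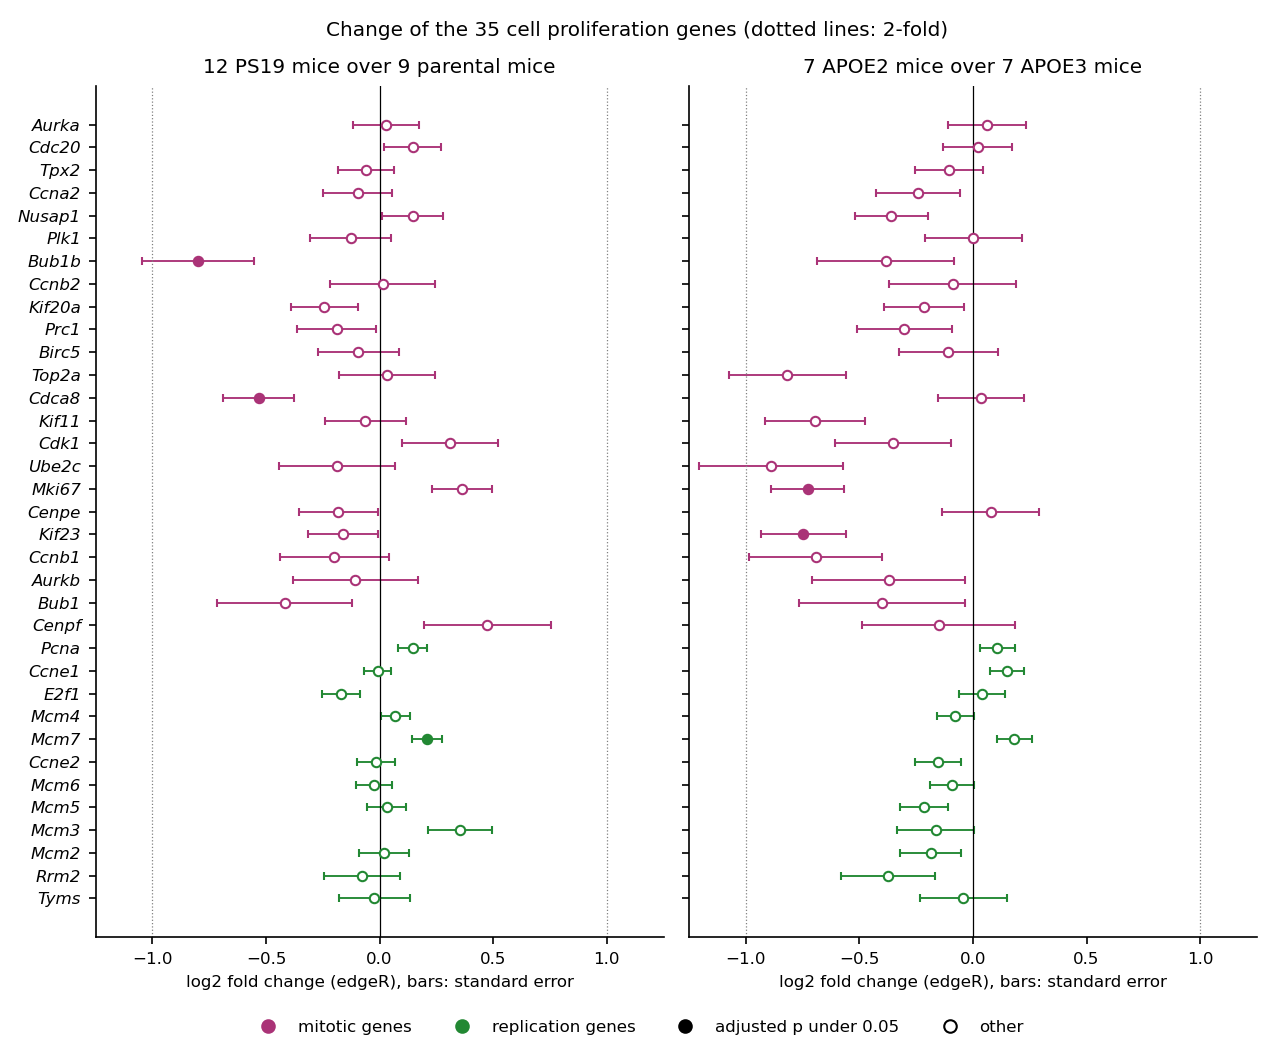
Fitted log2 fold change with its standard error for the 35 proliferation genes, for PS19 against parental mice over all APOE lines and for the APOE2 lines against the APOE3 lines over PS19 status; filled points have an adjusted p under 0.05 and dotted lines mark 2-fold. In the first comparison Bub1b, Cdca8 and Mcm7 are filled, and in the second Mki67 and Kif23.

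Whether the PS19 effect differed between APOE lines was tested as an interaction. No member passed, and edgeR passed 0.00% of all genes in each of the 3 interactions, with an unadjusted p under 0.05 for 1 member (Cdk1) between APOE2 and APOE3, 0 between APOE4 and APOE3, and 1 (Pcna) between APOE4 and APOE2, against 5.72%, 3.81% and 10.1% of genes. DESeq2 passed 11, 9 and 123 genes and 0 members. These tests were made gene by gene, and whether the mitotic medians differ between the 3 lines was not tested.

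Between APOE genotypes the summed level of the mitotic genes was lowest in APOE2 homozygous mice, with and without the tau transgene. The mean sum of the replication genes was highest in E2H among the parental and lowest in PS/E2H among the PS19 mice, with overlapping groups. Summed over the 23 mitotic genes, the level was 29.9 ± 2.08 CPM in E2H, 39.4 ± 2.94 in E3H and 36.9 ± 1.96 in E4H (SD, n = 3 mice each). It was 30.0 ± 2.92 CPM in PS/E2H, 35.3 ± 3.58 in PS/E3H and 33.4 ± 3.12 in PS/E4H (SD, n = 4 mice each). By mouse the sums were 31.7, 27.6 and 30.3 CPM in E2H, 36.8, 42.6 and 38.8 in E3H, and 35.5, 36.2 and 39.2 in E4H, so that all E2H mice lay below all E3H and E4H mice. The PS19 groups overlapped, with 27.7, 31.6, 33.3 and 27.5 CPM in PS/E2H, 30.6, 37.3, 34.7 and 38.8 in PS/E3H, and 37.2, 32.6, 29.7 and 34.1 in PS/E4H. The sum over the 12 replication genes was 144 ± 11.4, 135 ± 7.20 and 139 ± 4.28 CPM in E2H, E3H and E4H, and 141 ± 3.76, 146 ± 8.45 and 152 ± 10.8 CPM in the PS19 groups in the same order. By mouse it was 135, 157 and 142 CPM in E2H, 129, 132 and 143 in E3H, and 139, 134 and 143 in E4H. Of the E2H mice only replicate 2 lay above all E3H and E4H mice. It was 143, 143, 142 and 135 CPM in PS/E2H, 137, 148, 143 and 157 in PS/E3H, and 153, 154, 137 and 163 in PS/E4H. These sums are dominated by the more abundant genes of each set and were not tested.

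**Figure D4:**
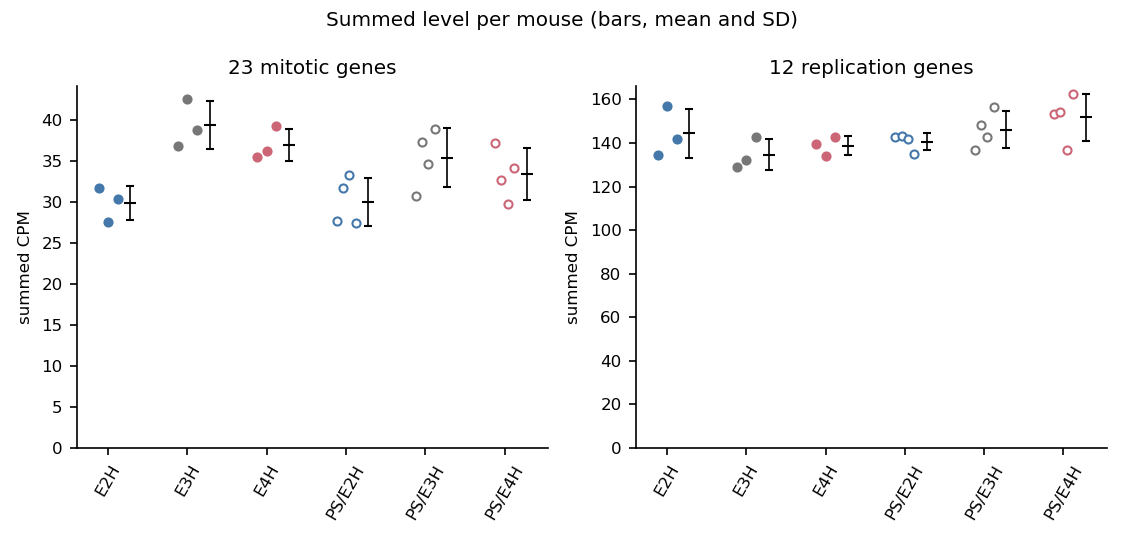
CPM summed over the 23 mitotic genes and over the 12 replication genes in each mouse by group, with bars at the group mean and SD and axes from 0. The E2H and PS/E2H groups have the lowest mitotic sums, 29.9 and 30.0 CPM, and the replication sums of all mice lie between 129 and 163 CPM.

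Among the parental mice, E2H had the lowest group mean for 19 of the 23 mitotic genes and E3H the highest for 15. In E2H against E3H, 21 of 23 mitotic genes had a lower fitted level, with a median log2 fold change of −0.43, while the replication genes had 7 of 12 lower and a median of −0.017. The median over all genes was near 0 in every comparison. No member passed by edgeR at any fold, where 0.144% of 20797 genes passed the 2-fold rule, and DESeq2 passed 1, Top2a. An unadjusted p under 0.05 with a lower level was reached by 5 mitotic genes, against 5.86% of genes. All E2H mice lay below all E3H mice for Ube2c, Kif11, Top2a, Bub1, Ccnb2, Kif23 and Mcm5, which were 7 of 35 members against 10.7% of genes. Cenpf, Ccne1 and Mcm7 were higher in all E2H mice than in any E3H mouse, which were 3 of 35 against 12.7% of genes. The log2 fold changes were −1.13 (SE 0.317) for Top2a, −1.55 (SE 0.556) for Ube2c, which encodes the ubiquitin-conjugating enzyme of the anaphase-promoting complex, and −1.10 (SE 0.285) for the cytokinesis kinesin gene Kif23, with adjusted p of 0.232, 0.287 and 0.226. The sums of hindbrain and of pituitary markers also did not overlap between E2H and E3H, and their part in these values was not tested.

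In E4H against E2H, 20 of 23 mitotic genes were higher with a median of 0.31, beside a median of −0.0048 over the replication genes. edgeR passed 0 members, where 0.187% of genes passed the 2-fold rule, DESeq2 passed 1, Top2a, and 6 mitotic genes had an unadjusted p under 0.05 with a higher level, against 5.38% of genes. Top2a had a log2 fold change of 1.34 (SE 0.325, adjusted p = 0.314), and Mki67 had 0.92 (SE 0.242, adjusted p = 0.342). Ube2c, Cdk1, Top2a, Tyms, Bub1, Mki67 and Kif23 were higher in all E4H mice than in any E2H mouse, which were 7 of 35 members against 10.7% of genes, and 0 of 35 were lower, against 10.7%. E4H against E3H passed 0 members at any fold by edgeR or DESeq2, against 0.162% of genes by edgeR, with 1 member and 6.67% of genes at an unadjusted p under 0.05 and a mitotic median of −0.065. The comparisons of E2H with E3H and of E4H with E2H share the E2H mice.

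Among the PS19 mice, PS/E2H had the lowest of the 3 means for 13 of 23 mitotic genes and PS/E3H the highest for 10. In PS/E2H against PS/E3H, 14 of 23 mitotic genes were lower with a median of −0.27, and 9 of 12 replication genes with a median of −0.079. In PS/E4H against PS/E2H, 16 of 23 mitotic genes were higher with a median of 0.21. edgeR and DESeq2 passed 0 members in these comparisons and in PS/E4H against PS/E3H, where edgeR passed 0.108%, 0.109% and 0.0197% of genes by the 2-fold rule. By edgeR an unadjusted p under 0.05 was reached by 3, 3 and 1 members, against 11.7%, 12.3% and 6.51% of genes. Mki67 did not overlap between PS/E2H, where it was at most 1.26 CPM, and PS/E3H, where it was at least 1.79, or PS/E4H, where it was at least 1.40. With the cyclin E gene Ccne2, which was lower in all PS/E2H than in all PS/E3H mice, 2 of 35 members did not overlap in the first comparison, against 5.39% of genes. In PS/E4H against PS/E2H it was 1 of 35, against 6.86%, and in PS/E4H against PS/E3H 0 of 35, against 3.80%.

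To use all 21 mice, the APOE lines were also compared with PS19 status as a covariate, a comparison added after the values above had been seen and not independent of them. With no limit on the fold, Mki67 fell by 0.73 on the log2 scale (SE 0.160, adjusted p = 0.0234 by edgeR) and Kif23 fell by 0.75 (SE 0.187, adjusted p = 0.0354) in the APOE2 lines against the APOE3 lines, where 1.11% of genes passed with a lower level. No member passed the 2-fold rule, against 0.315% of genes, and the same held with DESeq2. limma also passed 0 by that rule, on a scale that shrinks the fold changes of genes with low FPKM. With no limit on the fold DESeq2 passed Mki67, Top2a, Kif11 and Kif23 and limma passed 0 members. The share of all genes that DESeq2 passed is not given, so its calls cannot be set against one. At an unadjusted p under 0.05 edgeR had 8 members against 21.5% of genes. The median log2 fold change was −0.30 over the mitotic genes, of which 18 of 23 were lower, and −0.085 over the replication genes, of which 8 of 12 were lower, and 49.2% of all genes were higher. Mki67 was at 1.07 ± 0.178, 1.80 ± 0.547 and 1.70 ± 0.241 CPM in the APOE2, APOE3 and APOE4 lines (SD, n = 7 mice each), and Top2a at 1.34 ± 0.696, 2.38 ± 0.467 and 2.42 ± 0.675.

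Kif23 (ENSMUSG00000032254, chr9:61915905-61946774) was at 0.797, 0.801 and 0.745 CPM in E2H, 1.46, 2.17 and 1.39 in E3H, and 1.30, 1.02 and 1.33 in E4H, and is described in full after its values were seen. In the PS19 mice it was at 0.576, 0.706, 1.09 and 0.951 CPM in PS/E2H, 1.17, 1.27, 1.24 and 0.991 in PS/E3H, and 1.21, 1.49, 1.21 and 0.830 in PS/E4H. All E2H mice lay below all other parental mice, while among the PS19 mice PS/E2H replicates 3 and 4 overlapped with the other genotypes. Without PS/E3H replicate 3 neither gene passed (Mki67 −0.69, adjusted p = 0.0637), nor without the 4 mice with Y-linked counts (Mki67 −0.75, adjusted p = 0.0866). Without the 2 mice with the most Ngp Kif23 alone passed (Mki67 −0.63, adjusted p = 0.0507), and without PS/E2H replicate 3 Top2a (−1.09, adjusted p = 0.00628) and Kif11 (−0.78, adjusted p = 0.0300) passed as well. Kif23 was also lost, leaving Mki67 alone, without any 1 of the 3 E2H or 3 E3H mice, PS/E2H replicates 1 or 2, or PS/E3H replicate 2, with a log2 fold change from −0.76 to −0.63 and an adjusted p from 0.0506 to 0.0836, and with no count filter (−0.76, adjusted p = 0.0602).

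In the APOE4 lines against the APOE2 lines Mki67 rose by 0.68 on the log2 scale (SE 0.161, adjusted p = 0.0482 by edgeR), where 0.311% of genes passed with a higher level. All 7 APOE4 mice lay above all 7 APOE2 mice. The call was lost without any of 16 of the 21 mice, with the adjusted p at most 0.125, while the log2 fold change lay between 0.63 and 0.75. It was also lost without the 4 mice with Y-linked counts (0.76, adjusted p = 0.202), without the 2 mice with the most Ngp (0.67, adjusted p = 0.0830), with no count filter (0.69, adjusted p = 0.0776) and with limma on log2(FPKM + 0.1) (0.39, adjusted p = 0.158) or log2(FPKM + 1) (0.077, adjusted p = 0.184). Without PS/E2H replicate 3, Top2a (1.12, adjusted p = 0.0117) and Ube2c (1.22, adjusted p = 0.0450) passed too, both by the 2-fold rule. The APOE4 lines against the APOE3 lines passed 0 members by edgeR or DESeq2, against 0.0744% of genes by the 2-fold rule, with 1 member by edgeR against 5.77% of genes, and 0 by DESeq2, at an unadjusted p under 0.05, and a mitotic median of −0.056. These comparisons share mice, so their values are not independent of one another.

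The other genes of the cell cycle were read from lists of 50 mitotic, 46 replication and 21 G1 genes and the 7 cyclin-dependent kinase inhibitors. Of the kinase inhibitors, which hold cells out of the cycle, 3 of 7 rose and 1 fell over the lines in the PS19 mice, where 11.4% of all genes rose and 9.63% fell. Cdkn1a, which encodes the p53 target p21, was at 15.5, 16.5 and 13.1 CPM in E2H, 14.1, 13.5 and 14.7 in E3H, and 12.4, 16.4 and 10.8 in E4H. In the PS19 mice it was at 47.2, 29.1, 46.8 and 147 CPM in PS/E2H, 21.3, 38.2, 40.9 and 39.1 in PS/E3H, and 41.3, 30.6, 66.4 and 45.0 in PS/E4H, so that every PS19 mouse lay above every parental mouse. Cdkn1a rose by 1.76 on the log2 scale over the lines (SE 0.232, adjusted p = 9.5e-06 by edgeR), by 1.29 in PS/E3H (adjusted p = 0.00792) and by 1.80 in PS/E4H (adjusted p = 0.00161). In PS/E2H the log2 fold change was 2.17 (SE 0.486) with an adjusted p of 0.0918. The PS/E3H call was lost without E3H replicate 1 (1.29, adjusted p = 0.0575) and in 1 fit of all groups (1.30, adjusted p = 0.0580). Cdkn1c, which encodes p57, rose by 0.44 (SE 0.105, adjusted p = 0.00388) and Cdkn2c, which encodes p18, by 0.51 (SE 0.125, adjusted p = 0.00532). Cdkn1b, Cdkn2b and Cdkn2d had log2 fold changes of −0.025, −0.061 and −0.00026 with adjusted p of 0.838, 0.895 and 0.999.

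Cdkn2a, whose locus encodes p16 and p19ARF, went the other way. It was at 0.505, 0.888 and 0.801 CPM in E2H, 1.43, 2.22 and 1.92 in E3H, and 1.75, 1.82 and 2.10 in E4H, against 0.706, 0.622, 1.104 and 0.901 in PS/E2H, 0.777, 0.593, 0.845 and 0.732 in PS/E3H, and 1.04, 1.26, 1.0004 and 0.877 in PS/E4H. All E3H and E4H mice lay above all mice of the other 4 groups. Cdkn2a fell by 0.69 on the log2 scale over the lines (SE 0.195, adjusted p = 0.0133), by 1.34 in PS/E3H (adjusted p = 0.0211) and by 0.85 in PS/E4H (adjusted p = 0.0322), while in PS/E2H the value was 0.19 with an adjusted p of 0.917. The pooled call held without any single mouse (−0.82 to −0.61) but not without the 4 mice with Y-linked counts (−0.61, adjusted p = 0.0849). Within PS/E3H it was lost without any E3H mouse or PS/E3H replicate 4 (−1.50 to −1.19, adjusted p up to 0.0993), and within PS/E4H without any E4H mouse or PS/E4H replicates 1, 3 or 4 (−0.90 to −0.77, adjusted p up to 0.107). Without the 2 mice with the most Ngp the adjusted p was 0.0550 in PS/E3H (−1.34) and 0.0524 in PS/E4H (−0.84), and without the 4 mice with Y-linked counts it was 0.236 in PS/E4H (−0.65). In E2H against E3H its log2 fold change was −1.34 with an adjusted p of 0.218.

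**Figure D5:**
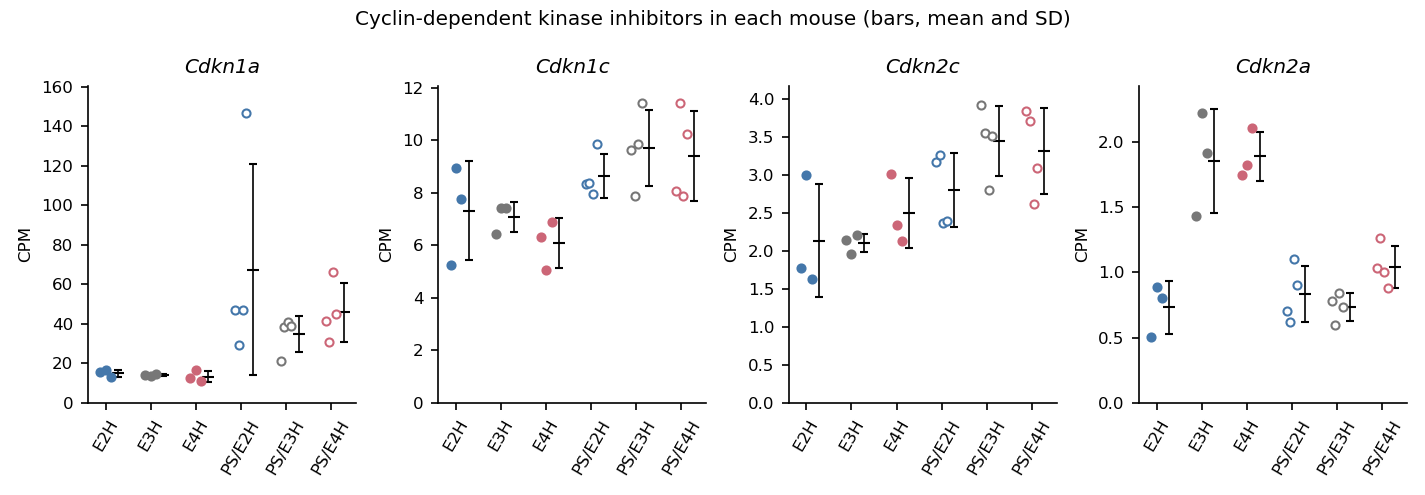
CPM of the kinase inhibitor genes Cdkn1a, Cdkn1c, Cdkn2c and Cdkn2a in each mouse by group, with filled points for parental and open points for PS19 mice and bars at the group mean and SD. Every PS19 mouse lies above every parental mouse for Cdkn1a, the highest at 147 CPM, and Cdkn2a is highest in E3H and E4H.

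Of the 50 other mitotic genes, 0 rose and 1 fell over the lines, namely Cdc25b, the phosphatase that activates Cdk1, with a log2 fold change of −0.43 (SE 0.0781, adjusted p = 0.000344 by edgeR). Of the 46 other replication genes 3 rose and 3 fell, beside the 11.4% and 9.63% of all genes. Those that rose were Rpa1, a subunit of the single-strand binding protein, by 0.19 (adjusted p = 0.000561), Rrm1, the large subunit of ribonucleotide reductase, by 0.21 (adjusted p = 0.0103), and Fen1, the flap endonuclease, by 0.25 (adjusted p = 0.0364), the last of them named after its values were seen. Cdc7, the kinase that fires origins, fell by 0.46 (adjusted p = 0.00514), and the origin recognition genes Orc4 and Orc6 fell by 0.17 and 0.14 (adjusted p = 0.00915 and 0.0178). Of the 21 G1 genes, the cyclin gene Ccnd3 rose by 0.30 (adjusted p = 0.00487) and the phosphatase gene Cdc25a by 0.26 (adjusted p = 0.0411), and E2f3 fell by 0.15 (adjusted p = 0.0171). Fen1 kept its call in 12 and Cdc25a in 9 of the 21 fits that left out 1 mouse, with the changes between 0.20 and 0.28 and between 0.22 and 0.31, and E2f3 lost it without the 4 mice with Y-linked counts (−0.13, adjusted p = 0.0792). Fen1 and Cdc25a also lost it without those 4 mice (0.26, adjusted p = 0.0666, and 0.31, adjusted p = 0.0614), without the 2 mice with the most Ngp (0.24, adjusted p = 0.0628, and 0.27, adjusted p = 0.0650) and with no count filter (0.24, adjusted p = 0.0645, and 0.26, adjusted p = 0.0672). With limma Cdc25a did not pass either (adjusted p = 0.0801 and 0.0779 with the smaller and the larger pseudocount).

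Between the APOE2 and APOE3 lines, 41 of the 50 other mitotic genes had a lower level in APOE2, with a median log2 fold change of −0.31 beside 0.013 over the other replication genes. The cytokinesis gene Ect2, which fell by 1.07 (SE 0.229, adjusted p = 0.0199 by edgeR), was 1 of 50, against 1.11% of all genes with a lower level. Cdkn2d, which encodes p19INK4d, rose by 0.35 (adjusted p = 0.0168), 1 of 7 kinase inhibitors against 2.20% of genes with a higher level. Both were named after their values were seen. Both calls were lost without E3H replicate 3 (Ect2 −1.06, adjusted p = 0.0517, Cdkn2d 0.32, adjusted p = 0.0589) and without the 4 mice with Y-linked counts (−1.05, adjusted p = 0.0971, and 0.33, adjusted p = 0.0929). These genes come from the same mice as the 23 mitotic genes and are not a second set of samples.

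Markers of the cell types of the tissue were read beside these values, and their part in the results was not tested. Over the lines, where 11.4% of genes rose and 9.63% fell, 9 of 10 microglial markers rose in the PS19 mice, and their summed level was 699 to 1323 CPM against 452 to 599 CPM in the parental mice. All 6 astrocyte markers rose as well, with sums of 4010 to 6073 against 2597 to 3199 CPM. Of 7 markers of oligodendrocyte precursors 2 rose (168 to 230 against 175 to 202 CPM), and of 11 markers of neural progenitors and neuroblasts 0 passed (112 to 142 against 100 to 141 CPM). Of 5 oligodendrocyte markers 3 rose (4687 to 7470 against 3908 to 5821 CPM), of 6 neuronal markers 1 rose and 3 fell (4776 to 6100 against 5584 to 6159 CPM), and of 5 erythroid markers 0 passed (28.8 to 381 against 190 to 779 CPM). T cell markers summed to 7.69 to 14.4 CPM in the PS19 mice and 9.25 to 13.2 CPM in the parental mice, with 0 to 29 counts of Cd3e per mouse. Most of this sum was Cd4, with 377 to 826 counts per mouse, so it says little about T cells. Between the APOE2 and APOE3 lines 0 microglial, precursor or progenitor markers passed at any fold. The sum of the progenitor and neuroblast markers was nevertheless 100 to 122 CPM in E2H, below all E3H mice (129 to 139), and 116 to 130 in PS/E2H against 120 to 142 in PS/E3H. E4H mice, at 110 to 141 CPM, overlapped with E2H. Of these markers Sox2 and Dlx1 had the most counts, with medians of 2287 and 1923, whereas Eomes and Neurog2 had medians of 34 and 29. Oligodendrocyte markers summed to 5124 to 5821 CPM in E2H, above all E3H mice (3908 to 4276), and to 4687 to 6105 in PS/E2H against 5293 to 5673 in PS/E3H. Their sum in E4H, 4315 to 5196 CPM, overlapped with E2H.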

How the data were processed

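Forebrain RNA of 21 mice was sequenced by the authors from stranded poly(A) libraries (TruSeq) on a NovaSeq instrument. Reads were trimmed with Cutadapt and aligned with HISAT2, and transcripts were quantified with StringTie, gffcompare and ballgown against mouse genome GRCm38 and Ensembl release 101. Tool versions and the way whole counts were derived are not given in the sources used here. The deposited gene counts are raw and not normalized, and the deposited FPKM values were normalized by the authors for transcript length and library size. Groups were taken from the sample labels, and each library is 1 mouse. All 254 listed genes were matched by symbol through GENCODE M21, which named 55141 of 55401 identifiers, and the gene positions are those of that annotation.

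Counts were tested with edgeR 4.0.16 in R 4.3.3 (TMM scaling, filterByExpr with at least 10 counts, quasi-likelihood F test, Benjamini-Hochberg adjustment over all genes tested), within each pair of groups, or over all 21 mice with APOE line or PS19 status as a covariate. All 35 genes passed the filter in every comparison. The study's limits (adjusted p under 0.05 and at least 2-fold) and the adjusted p alone were both read. CPM are the counts scaled by TMM over all 21 mice. Alternatives were DESeq2 1.42.0, edgeR with RLE factors or no filter, limma 3.58.1 on log2(FPKM + 0.1) or log2(FPKM + 1) of the deposited FPKM for genes with a mean of at least 0.05, 1 fit of all groups, a replicate block and leaving out each mouse. In the limma fits Cenpf was under the limit in most comparisons. The constant added to FPKM shrinks the fold changes of genes with low FPKM, so the 2-fold rule is stricter for them there. The edgeR step was tested on simulated data.

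Mki67, Top2a and Pcna were to be given in full by rule, together with any called gene, and at most 5 genes that passed from each further list by the smallest adjusted p, with all kinase inhibitors. Fen1, Ect2 and Cdkn2d in the APOE comparison fall outside this rule. The genes and lists were chosen with earlier results of these data known. Promoters came from RefSeq (GRCm38.p6) and matched 29 of 35 genes.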

Additional observations from a re-analysis of the deposited data

Results flagged for a closer look

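The 35 genes, the 7 kinase inhibitors and the 2 summed levels gave 132 groups of 4 PS19 mice, of which 9 held a mouse whose gap to the nearest other mouse was over Dixon's 95% critical value for the range of its group. Chance gives about 1 in 20 such groups. Cdkn1a was at 147 CPM in PS/E2H replicate 4, above the other mice of that group, and at 21.3 CPM in PS/E3H replicate 1, below the others. Cdk1 was at 1.55 CPM in PS/E4H replicate 1, Mcm3 at 7.06 CPM in PS/E3H replicate 4 and Tyms at 2.76 CPM in PS/E2H replicate 3, each apart from the other mice of its group. The same held for Cenpe at 1.85 CPM in PS/E3H replicate 1, Plk1 at 1.47 CPM in PS/E4H replicate 4, Ube2c at 0.339 CPM in PS/E4H replicate 3 and Cdc20 at 1.17 CPM in PS/E2H replicate 1. PS/E4H replicate 1 and PS/E3H replicate 4 are the 2 mice with the most Ngp counts.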

How the results depend on the processing

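By the 2-fold rule 0 of the 35 genes passed in any comparison with edgeR, and this count moved under few alternatives. The limma alternatives shrink the fold changes of genes with low FPKM and were less able to move it. DESeq2 passed 1 gene in PS/E3H against E3H (Bub1b), 1 in E2H against E3H and 1 in E4H against E2H (Top2a in both), and leaving out single mice gave 0 to 1 genes in PS/E3H against E3H, 0 to 1 in the APOE2 against the APOE3 lines and 0 to 2 in the APOE4 against the APOE2 lines. With no limit on the fold the counts were 1 in PS/E4H against E4H, 3 over all lines in PS19 against parental mice, 2 in the APOE2 against the APOE3 lines and 1 in the APOE4 against the APOE2 lines. Leaving out single mice moved these last 3 counts to 1 to 4, 0 to 4 and 0 to 3.

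The pooled log2 fold change of Top2a in PS19 mice was −0.022 on log2(FPKM + 0.1), −0.0082 on log2(FPKM + 1) and −0.068 without the 2 mice with the most Ngp, and −0.11 to 0.10 without single mice. Replicate numbers did not pair the mice, since the correlation of deviations between same-numbered mice was −0.121 to 0.0949 over 30 pairs. With the replicate block the count by the 2-fold rule was 0 in every comparison, and at any fold it was 2 over all lines, where Mcm7 was lost (0.15, adjusted p = 0.116), and 0 for Pcna in PS/E4H and for Mki67 in the APOE4 against the APOE2 lines.

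Pcna in PS/E4H was also lost with no count filter and with limma. The alternatives without the mice with Y-linked counts, without the mice with the most Ngp, and the pooled comparisons of APOE lines were added after the data were seen. Counting error was largest for the mitotic genes, the lowest of which had a median of 22 counts, although the spread between mice did not follow counts alone. Changes under 2-fold in a single APOE line were often within their error.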
